A study of Mus musculus with 37 samples.

Results

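Transcripts that mark T cells and natural killer (NK) cells were compared across livers of mice with wild-type STAT5B (WT) and mice with the STAT5B substitutions Y665F or Y665H. The genes were chosen by symbol and comprise 39 of the 24421 genes with a row in the count tables. They cover the T cell receptor complex, T cell surface proteins, the CD8 and CD4 co-receptors, regulatory T cell genes, costimulatory and cytokine receptors, cytotoxic effectors, chemokine genes, NK receptors and T-box factors. Total RNA from frozen liver of C57BL/6 mice aged 2 months was sequenced in 37 libraries. They fall into 6 groups: WT males (n = 6), Y665F males (n = 9), Y665H males (n = 4), WT females (n = 6), Y665F females (n = 6) and Y665H females (n = 6). Both substitutions replace a tyrosine of the SH2 domain, by phenylalanine in Y665F and by histidine in Y665H. Zygosity, the way the alleles were made and whether each library is a separate animal are not given in the sources used here. The p-values therefore measure the spread between these libraries, which may be technical.

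T cells read peptide on MHC molecules through a receptor whose signal is passed inward by the CD3 and zeta chains and then by the kinases LCK and ZAP70. CD8 marks cytotoxic T cells, CD4 marks helper T cells, and the transcription factor FOXP3 marks regulatory T cells. NK cells recognise stressed or infected cells through germline-encoded receptors such as NKp46 and NK1.1, and they share granzymes, perforin and the T-box factors with cytotoxic T cells. The liver normally houses NK cells and resident T cells in its sinusoids. STAT5B is activated by JAK kinases, downstream of growth hormone in hepatocytes and of interleukin-2, interleukin-7 and interleukin-15 in lymphocytes.

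The 18 female libraries held 24388434 to 40864173 reads in genes, and the 19 male libraries held 49141951 to 73937726. Levels are given in CPM, a gene's count relative to all gene counts of its library, scaled by trimmed means. Mean levels of albumin, the main hepatocyte secretory product, ran from 52800 to 181000 CPM across the groups of this tissue. The T and NK genes were rare by comparison: their summed level averaged 27.5 ± 3.66 (SD, n = 6) CPM in WT males and 85.8 ± 7.91 (SD, n = 6) CPM in Y665F females. Counts per gene do not show the substitution itself. Stat5b RNA averaged 96.4 ± 10.5 (SD, n = 6) CPM in WT males and 108 ± 5.34 (SD, n = 9) CPM in Y665F males, a log2 change of 0.17 ± 0.0674 (SE, adjusted p = 0.037), and it passed no threshold in the other comparisons with WT. That male call was lost in 13 of 25 alternative fits. Its paralog Stat5a, which shares much of its sequence, rose by 0.63 ± 0.0891 (SE, adjusted p = 3.11e-07) in Y665F males. In bulk tissue a difference in the number of cells of a type and a difference in RNA per cell cannot be told apart.

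Most T and NK genes were higher in Y665F liver than in WT liver of the same sex, and few were lower in Y665H liver. Of the 39 genes, 36 passed the filter on low counts and were tested, and Ctla4, Gzmk and Ifng did not. Differences were tested with edgeR's quasi-likelihood test, and a gene was called at a Benjamini-Hochberg adjusted p under 0.05 over 15152 genes. In Y665F males, 32 of the 36 were called higher and 0 lower, where 27.2% of all genes tested were called higher and 25.3% lower. In Y665F females, 33 were called higher and 0 lower, against 17.8% and 23.3% of all genes. In Y665H males, 0 were called higher and 5 lower, against 5.22% and 3.18%. In Y665H females, 0 were called higher and 11 lower, against 4.40% and 3.10%. The median log2 change over the genes tested was 1.53 in Y665F males and 1.07 in Y665F females, where the medians of all genes were -0.008 and -0.019. It was -0.46 in Y665H males and -0.63 in Y665H females, where all genes had medians of 0.006 and 0.005.

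Cd8b1, Fasl, Klrd1, Ncr1 and Eomes passed the filter only through the Y665F libraries, where they are high, so counts and medians over the 36 genes, and the values of these 5 in comparisons with Y665F, are descriptions. Among the 31 genes that pass on the WT libraries alone, 27 were called higher in Y665F males, with a median log2 change of 1.52, and 28 in Y665F females, with a median of 1.05. Of the same 31, 5 were called lower in Y665H males and 10 in Y665H females. Every library of the Y665F male group lay above every WT male library for 28 of the 36 genes, against 14.2% of all genes tested. In females this held for 22 genes, against 9.09%. Of the 31 genes, it held for 24 in males and 21 in females. The comparisons of Y665F and of Y665H with WT share their WT libraries.

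**Figure D1:**
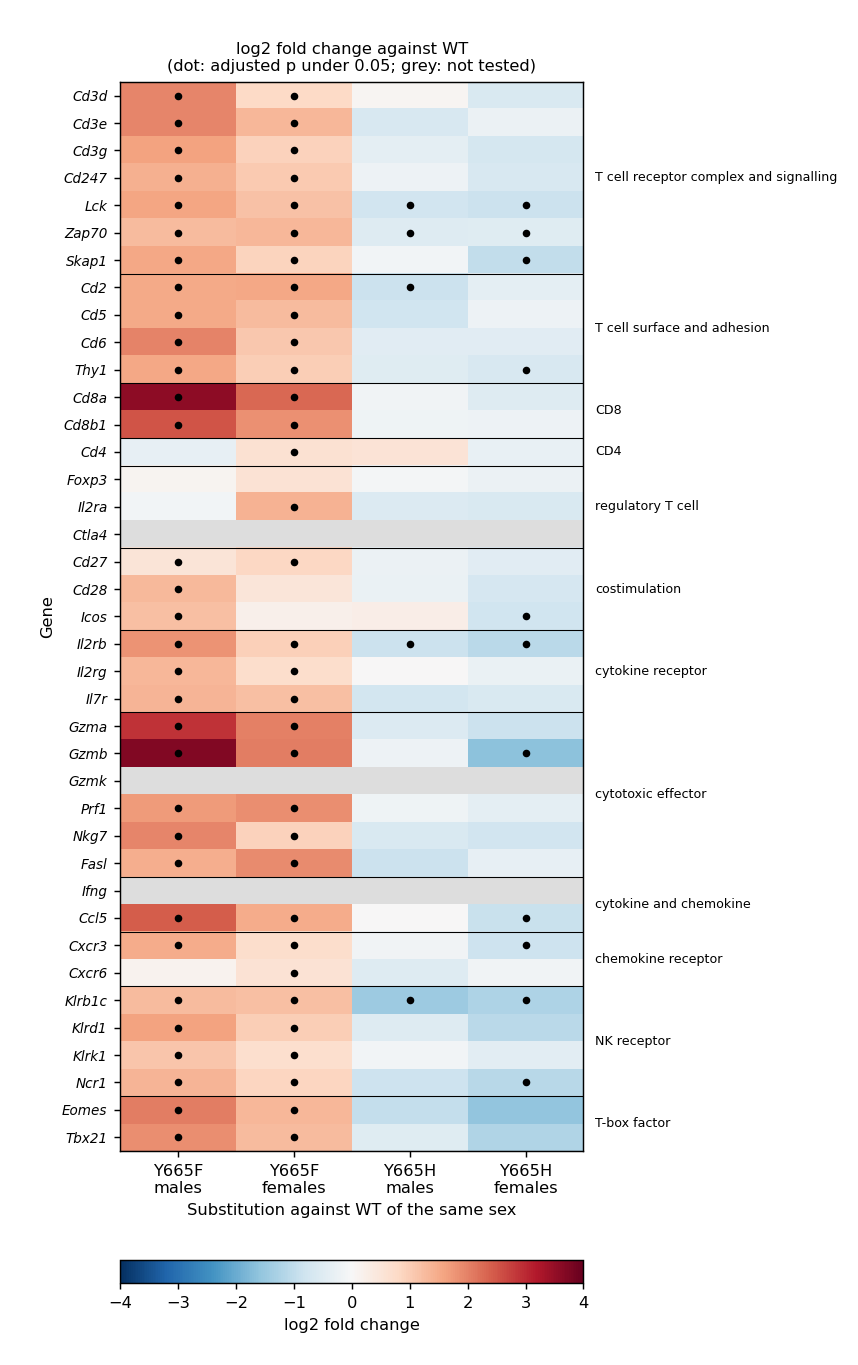
Log2 fold change (colour) of the 39 T and NK genes (rows, by role) in the 4 comparisons with WT (columns). Dots mark an adjusted p under 0.05 and grey cells mark the 3 genes that were not tested. The Y665F columns are higher for most rows, with Cd8a and Gzmb the largest in males and Cd4, Foxp3, Il2ra and Cxcr6 without a call there, and calls in the Y665H columns are all lower.

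Of the 28 genes with a promoter window in RefSeq's table, the 6 called in most of the 4 comparisons with WT are shown because they had calls in both mutants: Klrb1c, Lck and Zap70 in 4 comparisons each, and Gzmb, Ncr1 and Cxcr3 in 3 each. Several of the Y665H calls, those of Lck, Zap70 and Ncr1 among them, were lost in some fits that left out 1 library. Ncr1 passed the count filter only through the Y665F libraries. Each window runs from 250 bases before to 50 bases after the gene's start in RefSeq's annotation of GRCm38.p6 and is written 5′ to 3′ on the gene's strand. Capitals mark matches, on either strand, to the STAT motif TTCNNNGAA, the T-box motif AGGTGT, the RUNX motif TGTGGT or the ETS motif CAGGAAG.
Klrb1c (chr6:128788592-128788891, minus strand): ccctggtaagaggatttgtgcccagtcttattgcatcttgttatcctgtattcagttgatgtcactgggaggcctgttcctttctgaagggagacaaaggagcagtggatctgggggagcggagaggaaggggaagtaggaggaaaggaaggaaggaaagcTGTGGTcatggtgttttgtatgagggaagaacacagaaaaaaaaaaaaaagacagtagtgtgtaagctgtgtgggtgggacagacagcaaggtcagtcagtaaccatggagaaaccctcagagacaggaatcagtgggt
Lck (chr4:129573592-129573891, minus strand): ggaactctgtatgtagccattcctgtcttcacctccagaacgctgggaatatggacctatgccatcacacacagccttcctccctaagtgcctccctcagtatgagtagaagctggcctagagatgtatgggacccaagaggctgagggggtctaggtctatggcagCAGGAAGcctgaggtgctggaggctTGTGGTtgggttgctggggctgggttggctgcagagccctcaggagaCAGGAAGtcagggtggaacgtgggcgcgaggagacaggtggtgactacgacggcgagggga
Zap70 (chr1:36761548-36761847, plus strand): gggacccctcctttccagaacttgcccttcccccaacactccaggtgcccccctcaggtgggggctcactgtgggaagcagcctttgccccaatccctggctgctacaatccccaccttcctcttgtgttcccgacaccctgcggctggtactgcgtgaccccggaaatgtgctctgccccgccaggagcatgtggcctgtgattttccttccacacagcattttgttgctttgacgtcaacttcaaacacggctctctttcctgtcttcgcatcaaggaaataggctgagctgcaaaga
Gzmb (chr14:56262285-56262584, minus strand): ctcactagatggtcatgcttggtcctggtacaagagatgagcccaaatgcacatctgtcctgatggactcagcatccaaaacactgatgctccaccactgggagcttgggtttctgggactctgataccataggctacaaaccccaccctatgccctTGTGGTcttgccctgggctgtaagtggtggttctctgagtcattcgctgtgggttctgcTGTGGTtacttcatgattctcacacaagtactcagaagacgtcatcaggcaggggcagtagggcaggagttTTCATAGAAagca
Ncr1 (chr7:4337465-4337764, plus strand): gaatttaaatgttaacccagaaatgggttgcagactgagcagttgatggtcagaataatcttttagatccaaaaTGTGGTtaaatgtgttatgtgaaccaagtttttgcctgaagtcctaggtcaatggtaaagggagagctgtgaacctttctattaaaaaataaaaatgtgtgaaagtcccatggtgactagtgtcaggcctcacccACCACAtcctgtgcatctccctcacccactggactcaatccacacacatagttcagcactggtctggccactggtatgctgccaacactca
Cxcr3 (chrX:101734098-101734397, minus strand): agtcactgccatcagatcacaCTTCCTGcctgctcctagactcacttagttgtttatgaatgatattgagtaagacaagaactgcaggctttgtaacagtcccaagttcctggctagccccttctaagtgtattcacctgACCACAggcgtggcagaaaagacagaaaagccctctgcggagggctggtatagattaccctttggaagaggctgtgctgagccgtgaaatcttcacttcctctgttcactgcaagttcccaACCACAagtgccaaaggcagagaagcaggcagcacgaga
A RUNX match began 89 bases before the start of Klrb1c and 58 before that of Lck, which also held ETS matches 83 and 11 bases before it. Gzmb held RUNX matches 93 and 34 bases before its start and the STAT match TTCATAGAA 37 bases after it. Ncr1 held RUNX matches 176 and 41 bases before its start. Cxcr3 held RUNX matches 110 bases before and 11 bases after, and an ETS match 229 bases before. No match to these letters lay in the printed Zap70 window. Only the first window of a gene is printed. Over its 3 windows Zap70 held 1 RUNX and 1 ETS match. Over 2 windows each, Lck held 1 RUNX and 3 ETS matches and Ncr1 held 4 RUNX matches. RefSeq windows were found for 28 of the 39 genes, 33 windows in all. RUNX letters occurred in 14 of them (42.4%, against 16.8% of 32851 windows in the genome), ETS letters in 13 (39.4%, against 13.3%), T-box letters in 10 (30.3%, against 13.7%) and STAT letters in 6 (18.2%, against 8.3%). These shares are descriptions of letters, not of binding.

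The 7 genes of the T cell receptor complex and its proximal signalling all rose in Y665F liver of both sexes. Their log2 changes ran from 1.26 to 1.95 in males, with a median of 1.58, and from 0.81 to 1.34 in females, with a median of 1.05. Cd3e encodes the epsilon chain of CD3 and lies on chr9:44998740-45009627 (GRCm38) beside Cd3g and Cd3d. Its lowest, median and highest levels were 0.285, 0.464 and 0.526 CPM in WT males and 1.21, 1.64 and 3 CPM in Y665F males. In females they were 0.522, 0.562 and 0.721 CPM in WT and 1.06, 1.49 and 1.81 CPM in Y665F. No Y665F library overlapped the WT libraries of its sex. Cd3e rose by a log2 of 1.94 ± 0.171 (SE, adjusted p = 1.02e-11) in males and 1.34 ± 0.2 (SE, adjusted p = 1.56e-06) in females. The delta chain Cd3d rose by 1.95 ± 0.222 (SE, adjusted p = 3.89e-09) in males and 0.81 ± 0.256 (SE, adjusted p = 0.0104) in females, the gamma chain Cd3g by 1.61 ± 0.196 (SE, adjusted p = 1.52e-08) and 0.93 ± 0.231 (SE, adjusted p = 0.00143), and the zeta chain Cd247 by 1.43 ± 0.233 (SE, adjusted p = 3.77e-06) and 1.05 ± 0.277 (SE, adjusted p = 0.00248). Without strand information, reads of Cd247 cannot be told from those of Pou2f1 and Gm16565, whose exons overlap it.

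The kinase genes followed the receptor chains. Lck, the first kinase of the pathway, rose by 1.58 ± 0.184 (SE, adjusted p = 6.14e-09) in Y665F males and 1.16 ± 0.207 (SE, adjusted p = 2.71e-05) in Y665F females. Skap1, an adaptor that links the receptor to integrins, rose by 1.55 ± 0.206 (SE, adjusted p = 9.51e-08) and 0.9 ± 0.244 (SE, adjusted p = 0.00336). Zap70, the kinase recruited to phosphorylated zeta chains, was the most abundant of the 39 genes per kilobase of exon in all 6 groups. Its lowest, median and highest levels were 7.03, 8.73 and 10.4 CPM in WT males and 14, 22 and 24.6 CPM in Y665F males. In females they were 11.6, 15.1 and 17 CPM in WT and 30.6, 35.5 and 43.2 CPM in Y665F. The level of Zap70 per kilobase was 2.92 CPM in WT males where that of Cd3e was 0.108 CPM. Zap70 rose by 1.26 ± 0.13 (SE, adjusted p = 4.69e-10) in males and 1.32 ± 0.14 (SE, adjusted p = 1.86e-09) in females, and the groups did not overlap.

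Surface glycoproteins of T cells rose as well. Cd2, an adhesion receptor, rose by 1.51 ± 0.187 (SE, adjusted p = 2.23e-08) in Y665F males and 1.54 ± 0.231 (SE, adjusted p = 1.57e-06) in Y665F females. The scavenger-receptor family members Cd5 and Cd6, which modulate receptor signalling, rose by 1.52 ± 0.243 (SE, adjusted p = 2.72e-06) and 1.98 ± 0.219 (SE, adjusted p = 2.05e-09) in males. In females Cd5 rose by 1.25 ± 0.299 (SE, adjusted p = 0.00101) and Cd6 by 1.09 ± 0.241 (SE, adjusted p = 0.000418). Thy1, a membrane-anchored T cell antigen also present on other cells, rose by 1.55 ± 0.139 (SE, adjusted p = 1.55e-11) in males and 0.98 ± 0.153 (SE, adjusted p = 3.42e-06) in females.

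**Figure D2:**
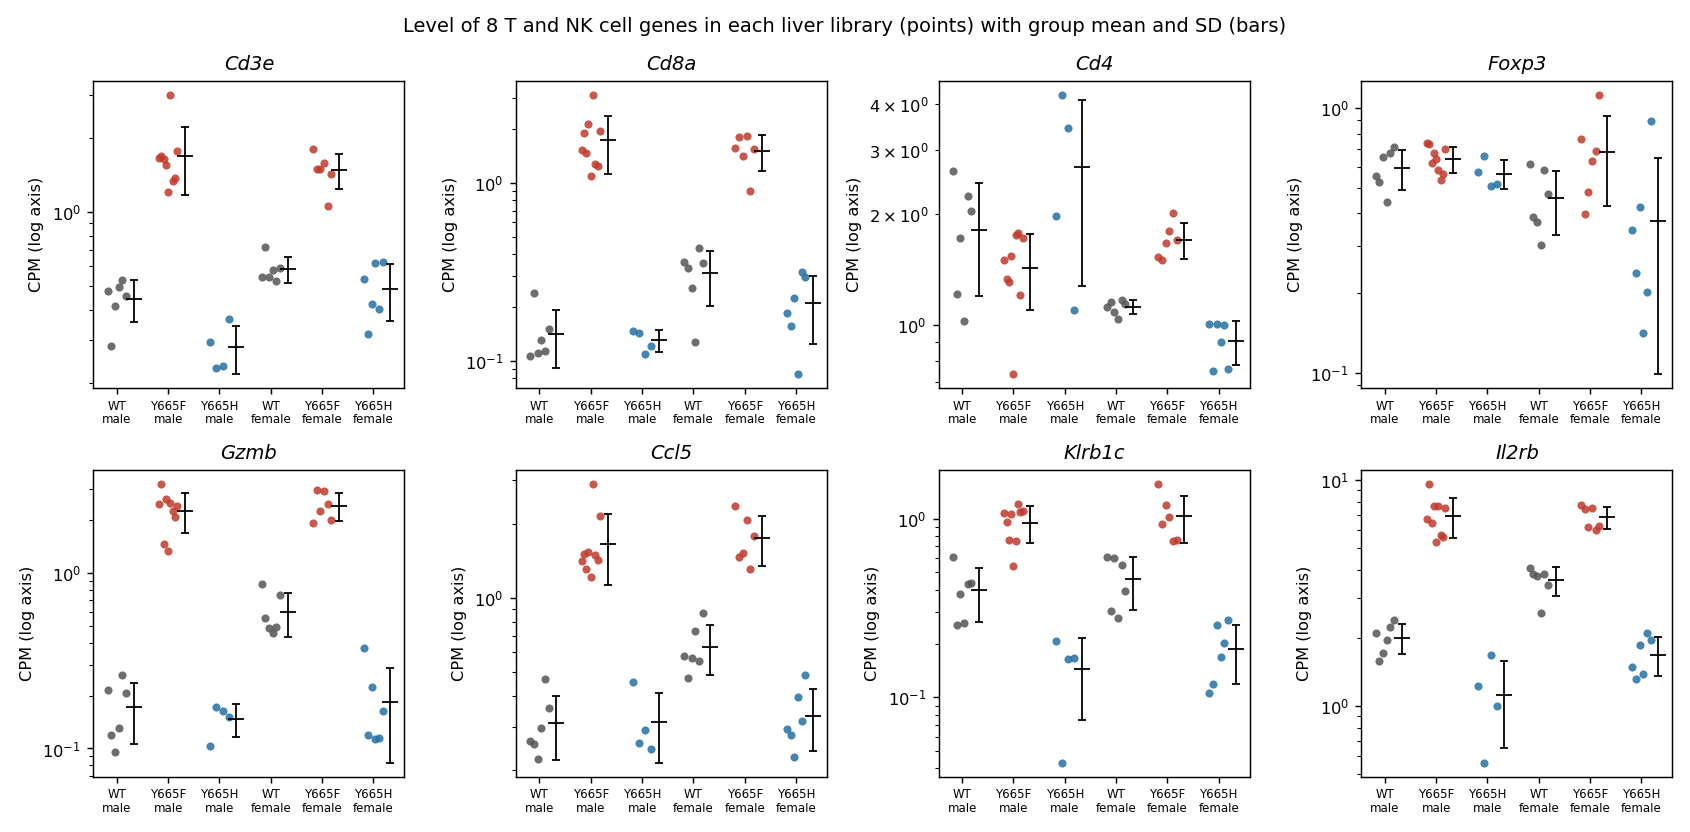
CPM (log axis) of 8 T and NK genes in each of the 37 libraries, by group, with the mean and SD of each group. The Y665F libraries of Cd3e, Cd8a, Gzmb, Ccl5 and Il2rb lie above the WT libraries of their sex, while the Cd4 and Foxp3 libraries of males overlap.

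Cd8a and Cd8b1 encode the alpha and beta chains of the CD8 co-receptor and lie side by side on chr6 (71373427-71379173 and 71322788-71337494, GRCm38). Cd8a had a larger fitted fold change in Y665F liver than any CD3 chain in both sexes. Cd8a stood at 0.107, 0.122 and 0.24 CPM (lowest, median and highest) in WT males and at 1.1, 1.54 and 3.12 CPM in Y665F males. In females it stood at 0.127, 0.343 and 0.43 CPM in WT and at 0.903, 1.57 and 1.83 CPM in Y665F. The mean of Y665F males was 12 times that of WT males on the fitted scale, a log2 change of 3.59 ± 0.253 (SE, adjusted p = 3.81e-14), and every Y665F library was above every WT library. In females the fold was 4.94, a log2 change of 2.31 ± 0.274 (SE, adjusted p = 1.99e-08), again without overlap. Per kilobase, Cd8a ranked 32 among the 39 genes in WT males and 13 in Y665F males.

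Cd8b1, whose product pairs with CD8 alpha on conventional cytotoxic T cells, showed the same order of groups at a lower level. Among males its levels were 0.0476, 0.0867 and 0.113 CPM in WT and 0.289, 0.388 and 1.08 CPM in Y665F, and among females 0.101, 0.119 and 0.217 CPM in WT and 0.26, 0.57 and 0.632 CPM in Y665F. The log2 change of Cd8b1, which passed the count filter only through the Y665F libraries, was 2.52 ± 0.32 (SE, adjusted p = 3.61e-08) in Y665F males and 1.84 ± 0.388 (SE, adjusted p = 0.000242) in Y665F females. In Y665H males the 4 libraries held 0.147, 0.144, 0.109 and 0.122 CPM of Cd8a and 0.0588, 0.0287, 0.109 and 0.107 CPM of Cd8b1, within the WT male range or below it. Neither chain was called in Y665H liver. The log2 change of Cd8a was -0.13 ± 0.379 (SE, adjusted p = 0.875) in males and -0.51 ± 0.347 (SE, adjusted p = 0.376) in females.

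Cd4, the co-receptor of helper and regulatory T cells, did not rise in Y665F males. It stood at 1.03, 1.89 and 2.63 CPM in WT males and 0.738, 1.5 and 1.78 CPM in Y665F males, and 0 of the 9 Y665F male libraries were above the WT mean. The log2 change of -0.34 ± 0.198 (SE, adjusted p = 0.153) was not called, and without WT male replicate 4 it was -0.47 with an adjusted p of 0.0459. In females Cd4 stood at 1.04, 1.13 and 1.17 CPM in WT and 1.5, 1.69 and 2.02 CPM in Y665F, and the groups did not overlap. It rose by 0.61 ± 0.25 (SE, adjusted p = 0.0488) there, but the call was lost in 11 of the 12 fits that left out 1 library, with adjusted p up to 0.097. The 4 Y665H male libraries spread widely, at 1.98, 4.22, 3.43 and 1.1 CPM, against a log2 change of 0.56 ± 0.237 (SE, adjusted p = 0.134) that was not called. Without Y665H male replicate 4, the lowest of them, it was 0.82 with an adjusted p of 0.0173. Y665H females held 0.752, 0.953 and 1.01 CPM, all below the WT female libraries, with a log2 change of -0.3 ± 0.262 (SE, adjusted p = 0.512) that was not called.

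Of the regulatory T cell genes, Foxp3 and Il2ra did not pass the threshold in Y665F males. Foxp3, the defining factor of regulatory T cells, stood at 0.443, 0.602 and 0.713 CPM in WT males and 0.536, 0.639 and 0.735 CPM in Y665F males, with overlapping groups and a log2 change of 0.11 ± 0.207 (SE, adjusted p = 0.669). Female libraries held 0.304, 0.43 and 0.614 CPM in WT and 0.399, 0.658 and 1.12 CPM in Y665F, with a log2 change of 0.58 ± 0.273 (SE, adjusted p = 0.0882). That female value was 0.69 with an adjusted p of 0.0431 without Y665F female replicate 2. The 4 Y665H male libraries held 0.573, 0.66, 0.508 and 0.518 CPM, inside the WT male range. In Y665H females Foxp3 ran from 0.141 to 0.894 CPM, the highest in replicate 6, and without that library its log2 change went from -0.24 to -0.72, with an adjusted p of 0.046. Exons of Ccdc22, Flicr, Gm36995 and Ppp1r3f overlap those of Foxp3, so part of its counts can come from them.

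Il2ra, the alpha chain of the high-affinity interleukin-2 receptor found on regulatory and activated T cells, stood at 0.667, 0.785 and 1.11 CPM in WT males and 0.48, 0.744 and 1.38 CPM in Y665F males. The log2 change of -0.1 ± 0.209 (SE, adjusted p = 0.717) was not called. In females it rose by 1.4 ± 0.275 (SE, adjusted p = 0.000101), from 0.253, 0.456 and 0.554 CPM to 0.654, 1.15 and 1.52 CPM, without overlap. Ctla4, an inhibitory receptor on regulatory and activated T cells, had at most 11 counts in any library. With no filter on low counts its log2 change was 3.01 in Y665F males (adjusted p = 0.000681), and in Y665F females it did not pass (adjusted p = 0.208).

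Of the 3 costimulatory receptors, all rose in Y665F males and 1 in Y665F females. Cd28, the receptor for B7 ligands, rose by 1.29 ± 0.225 (SE, adjusted p = 1.07e-05) in males, and its change of 0.47 ± 0.275 (SE, adjusted p = 0.17) in females was not called. Icos, an inducible relative of CD28, rose by 1.2 ± 0.179 (SE, adjusted p = 7.65e-07) in males, and its change of 0.2 ± 0.211 (SE, adjusted p = 0.47) in females was not called. Cd27, a receptor of the tumour necrosis factor family on T and NK cells, rose by 0.51 ± 0.194 (SE, adjusted p = 0.026) in males and 0.82 ± 0.231 (SE, adjusted p = 0.00436) in females. The male call of Cd27 was lost in 3 of the 15 fits that left out 1 library, with an adjusted p of 0.0719 without WT male replicate 6.

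Of the chains that make up cytokine receptors upstream of STAT5, Il2rb, Il2rg and Il7r rose in Y665F liver of both sexes, and Il2ra was not called in Y665F males. Il2rb, the beta chain shared by the interleukin-2 and interleukin-15 receptors, stood at 1.58, 2.03 and 2.39 CPM in WT males and 5.33, 6.72 and 9.62 CPM in Y665F males. Among females the values were 2.58, 3.8 and 4.08 CPM in WT and 6.01, 6.84 and 7.71 CPM in Y665F. Il2rb rose by 1.79 ± 0.151 (SE, adjusted p = 3.18e-12) in males and 0.94 ± 0.162 (SE, adjusted p = 1.74e-05) in females, without overlap in either sex. The common gamma chain Il2rg rose by 1.34 ± 0.156 (SE, adjusted p = 6.59e-09) and 0.69 ± 0.177 (SE, adjusted p = 0.00191), and exons of Gm20489 overlap it. Il7r, the interleukin-7 receptor of naive and memory T cells, stood at 0.329, 0.374 and 0.525 CPM in WT males and 0.818, 1.01 and 1.35 CPM in Y665F males. In females it stood at 0.329, 0.524 and 0.629 CPM in WT and 0.358, 1.3 and 1.53 CPM in Y665F, where 5 of 6 libraries were above the WT mean. Il7r rose by 1.36 ± 0.219 (SE, adjusted p = 3.05e-06) in males and 1.2 ± 0.259 (SE, adjusted p = 0.000319) in females. In Y665H males its libraries held 0.235, 0.0861, 0.417 and 0.244 CPM, with a change of -0.72 ± 0.303 (SE, adjusted p = 0.134) that was not called.

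A cytotoxic effector, Gzmb, had the highest fold in Y665F males among the 36 T and NK genes tested. Gzmb, which encodes the protease granzyme B (chr14:56258838-56262260, GRCm38), stood at 0.0953, 0.168 and 0.263 CPM in WT males and 1.33, 2.42 and 3.23 CPM in Y665F males. Female libraries held 0.455, 0.523 and 0.867 CPM in WT and 1.92, 2.36 and 2.96 CPM in Y665F. The groups were far apart in both sexes. The fitted fold was 13.1 in males, a log2 change of 3.71 ± 0.229 (SE, adjusted p = 1.03e-15), and 4.11 in females, a log2 change of 2.04 ± 0.226 (SE, adjusted p = 4.4e-09). Mean Gzmb was 2.27 CPM in Y665F males and 2.42 CPM in Y665F females, from WT means of 0.172 CPM in males and 0.6 CPM in females. Per kilobase its rank among the 39 genes went from 20 (WT) to 5 (Y665F) in males and from 10 to 4 in females.

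Gzma, which encodes granzyme A, stood at 0.131, 0.191 and 0.282 CPM in WT males and 0.606, 1.34 and 4.22 CPM in Y665F males, where replicate 6 was the highest. Among females the values were 0.304, 0.394 and 0.759 CPM in WT and 1.59, 1.75 and 2.1 CPM in Y665F. It rose by 2.9 ± 0.354 (SE, adjusted p = 1.68e-08) in males and 2.03 ± 0.378 (SE, adjusted p = 4.76e-05) in females. Prf1, which encodes the pore-forming protein perforin, stood among males at 0.18, 0.269 and 0.338 CPM in WT and 0.58, 0.778 and 1.61 CPM in Y665F, and among females at 0.246, 0.353 and 0.472 CPM in WT and 0.809, 1.16 and 2.16 CPM in Y665F. Prf1 rose by 1.69 ± 0.233 (SE, adjusted p = 1.75e-07) in males and 1.86 ± 0.269 (SE, adjusted p = 8.48e-07) in females, without overlap. The granule protein gene Nkg7 rose by 1.94 ± 0.249 (SE, adjusted p = 4.43e-08) and 0.92 ± 0.283 (SE, adjusted p = 0.00891). Fasl, the death ligand of killer cells, passed the filter only through the Y665F libraries, and its log2 changes were 1.45 ± 0.292 (SE, adjusted p = 8.26e-05) and 1.88 ± 0.413 (SE, adjusted p = 0.000385), with overlapping groups. Gzmk had at most 8 counts in any library. With no filter its log2 change was 2.46 in Y665F males (adjusted p = 0.0141) and it did not pass in Y665F females (adjusted p = 0.294).

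Ccl5, a chemokine stored by cytotoxic T and NK cells, stood at 0.222, 0.278 and 0.47 CPM in WT males and 1.21, 1.49 and 2.91 CPM in Y665F males. In females it stood at 0.471, 0.575 and 0.866 CPM in WT and 1.31, 1.66 and 2.37 CPM in Y665F. It rose by 2.43 ± 0.205 (SE, adjusted p = 3.65e-12) in males and 1.49 ± 0.223 (SE, adjusted p = 1.62e-06) in females, and no Y665F library overlapped WT. Cxcr3, the receptor for the interferon-induced chemokines CXCL9 and CXCL10, rose by 1.48 ± 0.145 (SE, adjusted p = 1.41e-10) and 0.7 ± 0.16 (SE, adjusted p = 0.000579). Cxcr6, a receptor that helps to retain lymphocytes in the liver, was the second gene per kilobase in WT males and was not called in Y665F males. It stood at 1.7, 2 and 2.89 CPM in WT males and 1.83, 2.23 and 2.87 CPM in Y665F males, a log2 change of 0.13 ± 0.172 (SE, adjusted p = 0.554). With the share of reads outside annotated genes as a covariate the change was 0.42 and was called (adjusted p = 0.0452). Female libraries held 0.866, 1.33 and 1.45 CPM in WT and 1.12, 1.95 and 2.2 CPM in Y665F, where the gene rose by 0.59 ± 0.218 (SE, adjusted p = 0.0294), a call lost in 5 of 12 fits that left out 1 library (adjusted p up to 0.072). Ifng, the interferon gamma gene, had at most 9 counts in any library. With no filter its log2 change was 2.57 in Y665F males (adjusted p = 0.00418) and it did not pass in females (adjusted p = 0.194).

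Each of the 4 NK receptor genes was called higher in Y665F liver of both sexes, and 2 of them, Ncr1 and Klrd1, passed the count filter only through the Y665F libraries. Klrb1c, which encodes NK1.1 in C57BL/6 mice, stood at 0.255, 0.407 and 0.614 CPM in WT males and 0.541, 1.06 and 1.21 CPM in Y665F males. Among females the values were 0.278, 0.473 and 0.614 CPM in WT and 0.747, 0.977 and 1.57 CPM in Y665F. It rose by 1.25 ± 0.22 (SE, adjusted p = 1.16e-05) in males, where the groups overlapped, and by 1.19 ± 0.267 (SE, adjusted p = 0.000485) in females, where they did not. Ncr1, the NKp46 receptor of NK cells and innate lymphoid cells, stood among males at 0.127, 0.152 and 0.178 CPM in WT and 0.235, 0.402 and 0.595 CPM in Y665F, and among females at 0.111, 0.236 and 0.433 CPM in WT and 0.298, 0.427 and 0.523 CPM in Y665F. The log2 change of Ncr1 was 1.37 ± 0.237 (SE, adjusted p = 9.6e-06) in males and 0.86 ± 0.291 (SE, adjusted p = 0.0173) in females, and the female call was lost without WT female replicate 4 (adjusted p = 0.0513). That of Klrd1, the CD94 chain, was 1.62 ± 0.229 (SE, adjusted p = 3.12e-07) in males and 0.99 ± 0.29 (SE, adjusted p = 0.00639) in females. Klrk1, which encodes NKG2D, rose by 1.12 ± 0.194 (SE, adjusted p = 9.19e-06) and 0.68 ± 0.227 (SE, adjusted p = 0.0159). The Klr genes are members of a family with similar sequences, so their counts depend on how multiply mapped reads were treated.

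Of the T-box factors that set the cytotoxic programme, Tbx21 rose in Y665F liver, and Eomes passed the count filter only through the Y665F libraries. Eomes stood at 0.015, 0.0589 and 0.0656 CPM in WT males and 0.104, 0.184 and 0.36 CPM in Y665F males, which do not overlap. In females it stood at 0, 0.0819 and 0.215 CPM in WT and 0.0447, 0.221 and 0.349 CPM in Y665F, which do. The log2 change of Eomes was 2.06 ± 0.404 (SE, adjusted p = 5.74e-05) in males and 1.33 ± 0.485 (SE, adjusted p = 0.0265) in females, and the female call was lost in 5 of 12 fits that left out 1 library (adjusted p up to 0.0659). Tbx21, which encodes T-bet, rose by 1.85 ± 0.274 (SE, adjusted p = 6.62e-07) and 1.25 ± 0.318 (SE, adjusted p = 0.00191).

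Ratios between genes within a library describe the unequal change of these genes without reference to depth. Each is the log2 ratio of levels with 2 counts added, tested by a 2-sided exact permutation test, with p adjusted over 28 tests (7 ratios in 4 comparisons). The ratios were chosen after the values were seen, so their p-values restate a pattern already observed and are descriptions. In Y665F males the ratio of Cd3e to Ptprc, the pan-leukocyte gene CD45, was 0.65 higher than in WT males (adjusted exact p = 0.0088). Ptprc itself rose by 1.18 ± 0.144 (SE, adjusted p = 1.64e-08) in males and 0.73 ± 0.159 (SE, adjusted p = 0.000355) in females. Relative to Cd3e, the difference from WT males was 1.44 for Cd8a and 1.63 for Gzmb, while it was -2.13 for Cd4 and -1.71 for Foxp3 (adjusted exact p = 0.0014 each, where 2e-04 is the smallest p the design can give). The ratios of Ncr1 and Klrb1c to Cd3e differed by -0.68 (adjusted exact p = 0.056) and -0.63 (adjusted exact p = 0.0523), which did not pass. Ncr1 passed the count filter only through the Y665F libraries, so its ratio is no more than a description.

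In Y665F females 4 of the 7 ratios passed. Cd3e over Ptprc was higher by 0.55 (adjusted exact p = 0.0227) and Cd8a over Cd3e by 0.91 (0.0088). The difference was -0.69 (adjusted exact p = 0.0267) for Cd4, 0.69 (adjusted exact p = 0.044) for Gzmb and -0.77 (adjusted exact p = 0.0566) for Foxp3, each relative to Cd3e. The Gzmb ratio passed in only 3 of the 12 sets that left out 1 library, with adjusted p up to 0.07. In Y665H males the ratio of Cd3e to Ptprc differed from WT by -0.74 (adjusted exact p = 0.0267), which passed in 8 of 10 such sets and reached 0.0555 without Y665H male replicate 2. No other ratio passed in Y665H males, where 0.00476 is the smallest p possible. In Y665H females Gzmb over Cd3e differed by -1.30 (adjusted exact p = 0.0088) and passed in all 12 sets. The difference of Klrb1c over Cd3e was -0.86 (adjusted exact p = 0.0562), which did not pass, nor did the other 5 ratios.

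**Figure D3:**
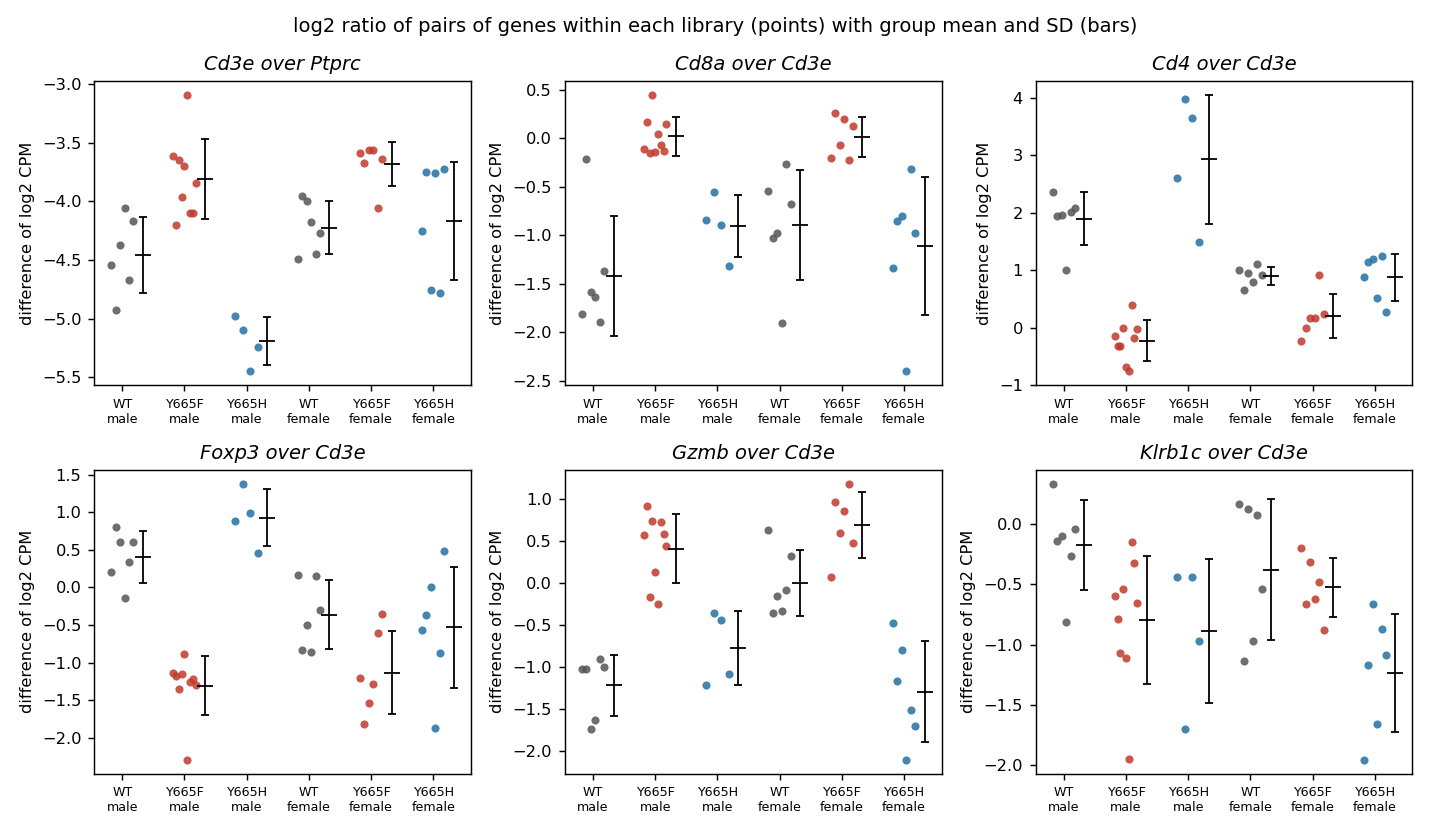
Log2 ratios between genes within each library (points), by group, for Cd3e over Ptprc and for Cd8a, Cd4, Foxp3, Gzmb and Klrb1c over Cd3e. In Y665F males Cd8a and Gzmb are higher and Cd4 and Foxp3 lower relative to Cd3e than in WT males, and in Y665H females Gzmb is lower.

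In Y665H liver the called genes were all lower. The 5 in males were Klrb1c, with a log2 change of -1.45 ± 0.33 (SE, adjusted p = 0.00551), Cd2 at -0.86 ± 0.27 (SE, adjusted p = 0.0407), Il2rb at -0.85 ± 0.196 (SE, adjusted p = 0.00585), Lck at -0.77 ± 0.249 (SE, adjusted p = 0.0478) and Zap70 at -0.52 ± 0.16 (SE, adjusted p = 0.0374). At an unadjusted p under 0.05, 12 were lower, against 10.7% of all genes. Klrb1c held 0.206, 0.0431, 0.163 and 0.167 CPM in the 4 libraries and Zap70 6.54, 5.87, 6.08 and 5.77 CPM, all below the WT male libraries. These were the 2 of 36 genes that lay lower without overlap, against 5.74% of all genes, and 0 lay higher without overlap, against 6.75%. Il2rb held 1.22, 0.56, 1.67 and 1 CPM and Lck 0.338, 0.187, 0.599 and 0.441 CPM, which overlap WT. Klrb1c and Il2rb were called in each of the 10 fits that left out 1 library, with adjusted p up to 0.0386 and 0.0435. Lck was not called in 7, Zap70 in 6 and Cd2 in 8 of the 10, and each had its highest adjusted p (0.226, 0.0916 and 0.187) without Y665H male replicate 2, the library that was lowest for 21 of the 36 genes.

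The other genes of Y665H males were not called. Cd3e held 0.294, 0.23, 0.236 and 0.365 CPM, a change of -0.63 ± 0.235 (SE, adjusted p = 0.0855). Gzmb held 0.103, 0.172, 0.163 and 0.152 CPM, Gzma 0.103, 0.115, 0.2 and 0.137 CPM and Prf1 0.279, 0.215, 0.145 and 0.289 CPM, none of them called. Ccl5 held 0.456, 0.258, 0.29 and 0.244 CPM and Cxcr6 2.19, 0.905, 1.87 and 0.944 CPM. Ncr1 held 0.0882, 0.0574, 0.0544 and 0.137 CPM and Eomes 0.0147, 0.0431, 0 and 0.0304 CPM, both at a few counts per library and not called.

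The 11 genes called lower in Y665H females included 2 of the 4 NK receptor genes (Klrb1c and Ncr1), the interleukin-15 receptor chain Il2rb and the effector gene Gzmb. Gzmb fell by 1.63 ± 0.302 (SE, adjusted p = 0.00215) on the log2 scale, from 0.455, 0.523 and 0.867 CPM in WT to 0.113, 0.141 and 0.372 CPM. Klrb1c fell by 1.25 ± 0.33 (SE, adjusted p = 0.0189), to 0.106, 0.185 and 0.271 CPM, and Ncr1 fell by 1.11 ± 0.358 (SE, adjusted p = 0.0497), to 0.0287, 0.082 and 0.225 CPM. Il2rb fell by 1.08 ± 0.177 (SE, adjusted p = 0.000654), to 1.31, 1.67 and 2.1 CPM. Cxcr3 fell by 0.84 ± 0.177 (SE, adjusted p = 0.0048) and Ccl5 fell by 0.9 ± 0.264 (SE, adjusted p = 0.0331), with Ccl5 at 0.225, 0.304 and 0.488 CPM. The changes of the others were -0.99 ± 0.289 (SE, adjusted p = 0.0324) for Skap1, -0.85 ± 0.233 (SE, adjusted p = 0.0231) for Lck, -0.8 ± 0.224 (SE, adjusted p = 0.0268) for Icos, -0.65 ± 0.166 (SE, adjusted p = 0.0158) for Thy1 and -0.49 ± 0.143 (SE, adjusted p = 0.0318) for Zap70. At an unadjusted p under 0.05, 19 were lower, against 11.0% of all genes. Cd4, Cxcr3, Gzmb, Icos, Il2rb and Klrb1c had every Y665H female library below every WT library, 6 of 36 against 0.706% of all genes, and 0 lay higher without overlap, against 0.884%.

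The receptor chains themselves were not called in Y665H females. Cd3e stood at 0.317, 0.476 and 0.623 CPM, a change of -0.25 ± 0.22 (SE, adjusted p = 0.513), and Cd8a at 0.0845, 0.205 and 0.316 CPM. Cd8b1 stood at 0.0396, 0.0829 and 0.201 CPM, Gzma at 0, 0.201 and 0.563 CPM and Prf1 at 0.119, 0.276 and 0.398 CPM. Il7r stood at 0.197, 0.316 and 0.515 CPM, Cxcr6 at 0.676, 0.979 and 1.69 CPM and Eomes at 0, 0.0273 and 0.0813 CPM. Tbx21 (-1.19 ± 0.398 (SE, adjusted p = 0.0577)) and Klrd1 (-1.09 ± 0.361 (SE, adjusted p = 0.0547)) missed the threshold by little. Gzmb, Il2rb, Cxcr3 and Thy1 were called in each of the 12 fits that left out 1 library. Ncr1 lost its call in 8, Skap1 and Zap70 in 6, Ccl5 in 5, Lck and Icos in 3, and Klrb1c in 1 (adjusted p = 0.0541 without Y665H female replicate 2). With only the WT and Y665H females in the fit, 2 genes were called, and without Y665H female replicate 2, 4 were.

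Set against each other, the mutants differed at nearly every gene tested. In males, 33 of 36 were lower in Y665H than in Y665F and 1 was higher, where 21.2% of all genes were called lower and 20.5% higher. Gzmb differed by -3.92 ± 0.279 (SE, adjusted p = 8.99e-14), Cd8a by -3.71 ± 0.304 (SE, adjusted p = 3.36e-12) and Gzma by -3.44 ± 0.446 (SE, adjusted p = 9.9e-08). Cxcr6 had the smallest called difference, at -0.64 ± 0.204 (SE, adjusted p = 0.0111). Cd4 was higher in Y665H males by 0.9 ± 0.217 (SE, adjusted p = 0.00103), and Foxp3 (-0.18 ± 0.237 (SE, adjusted p = 0.571)) and Il2ra (-0.46 ± 0.25 (SE, adjusted p = 0.135)) were not called. In 31 genes every Y665H male library lay below every Y665F male library, against 11.8% of all genes. In females, 36 of 36 were lower in Y665H, where 26.0% of all genes were called lower and 30.5% higher, and 28 did not overlap, against 10.9%. Among the 31 genes that pass the filter without the Y665F libraries, 28 were lower and 1 higher in males and 31 lower in females, with no overlap for 26 and 25. Gzmb again differed most, by -3.67 ± 0.265 (SE, adjusted p = 9.42e-14), followed by Eomes and Gzma at -2.91 ± 0.599 (SE, adjusted p = 0.000106) and -2.91 ± 0.41 (SE, adjusted p = 2.83e-07), while Cxcr6 differed by -0.72 ± 0.218 (SE, adjusted p = 0.0053) and Foxp3 by -0.82 ± 0.277 (SE, adjusted p = 0.0121).

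WT males and WT females differed at 19 of the 36 genes: 16 were lower in males and 3 higher, where 26.8% and 23.0% of all genes were called. Male libraries were sequenced more deeply than female ones, so sex and depth move together here. The difference of males from females was -1.77 ± 0.275 (SE, adjusted p = 2.27e-06) for Gzmb, -1.13 ± 0.262 (SE, adjusted p = 0.000577) for Cd6, -1.11 ± 0.441 (SE, adjusted p = 0.0354) for Gzma, -1.1 ± 0.168 (SE, adjusted p = 1.71e-06) for Cxcr3, -1.07 ± 0.333 (SE, adjusted p = 0.00791) for Cd8a and -1.01 ± 0.244 (SE, adjusted p = 0.000821) for Ccl5. The 3 higher in males were Il2ra at 0.95 ± 0.267 (SE, adjusted p = 0.0036), Cxcr6 at 0.77 ± 0.206 (SE, adjusted p = 0.00222) and Cd4 at 0.7 ± 0.238 (SE, adjusted p = 0.0145). NK receptors were not called between the sexes. In males and females of WT, 8 of 36 genes were lower without overlap, against 15.7% of all genes, and 2 higher, against 14.1%. The share of reads outside annotated genes averaged 18.8% in WT males and 11.6% in WT females. With that share as a covariate 10 genes were called, 8 of them among the 19, and the value of Il2ra was -0.06 (adjusted p = 0.912).

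The response to Y665F differed between the sexes at 13 of the 36 genes by the interaction term, where 16.1% of all genes had a more positive change in males and 11.5% a more negative one. The change was more positive in males for 11 genes: by 1.67 ± 0.327 (SE, adjusted p = 0.000201) for Gzmb, 1.28 ± 0.388 (SE, adjusted p = 0.0127) for Cd8a, 1.13 ± 0.341 (SE, adjusted p = 0.012) for Cd3d, 1.02 ± 0.376 (SE, adjusted p = 0.0399) for Nkg7 and 1.0 ± 0.276 (SE, adjusted p = 0.00644) for Icos. Ccl5, Cd6, Il2rb, Cxcr3, Il2rg and Thy1 were the other 6. It was more negative in males for Il2ra, by -1.5 ± 0.346 (SE, adjusted p = 0.00131), and Cd4, by -0.95 ± 0.319 (SE, adjusted p = 0.0248). The 3 genes with higher levels in WT males and no call in Y665F males were Cd4, Il2ra and Cxcr6. With the share of reads outside genes as a covariate the count was 5, and with all libraries thinned to the lowest depth it was 7. For Y665H the interaction was called for Icos alone, at 1.07 ± 0.314 (SE, adjusted p = 0.0391), where 2.94% and 2.30% of all genes were called, and the call was lost in 9 of the 22 fits that left out 1 library (adjusted p up to 0.0836) and with only the groups compared.

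Some libraries stood apart from their groups. Y665F male replicate 5 was the lowest of its group for 22 of the 36 genes and replicate 6 the highest for 12. Summed CPM of the CD3 and zeta chains ran from 2.57 to 5.75 in Y665F males and from 0.825 to 1.26 in WT males, and granzymes with perforin from 2.98 to 7.46 and 0.459 to 0.808. In females the CD3 and zeta sums ran from 2.62 to 4.16 in Y665F, 1.42 to 2.02 in WT and 0.752 to 1.41 in Y665H. WT male replicate 5 was the highest of its group for 19 genes, and Y665H female replicate 2 the lowest for 18, with Ptprc at 4.75 CPM where the group mean was 9.63 CPM. Leaving out any 1 library gave 31 to 32 called genes in Y665F males and 29 to 32 in Y665F females. The share of reads outside annotated genes averaged 18.8%, 15.8% and 14.3% in WT, Y665F and Y665H males and 11.6%, 13.9% and 9.59% in the corresponding females. With that share as a covariate, 33 genes were called in Y665F males and 32 in Y665F females, but 2 in Y665H males and 5 in Y665H females.

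**Figure D4:**
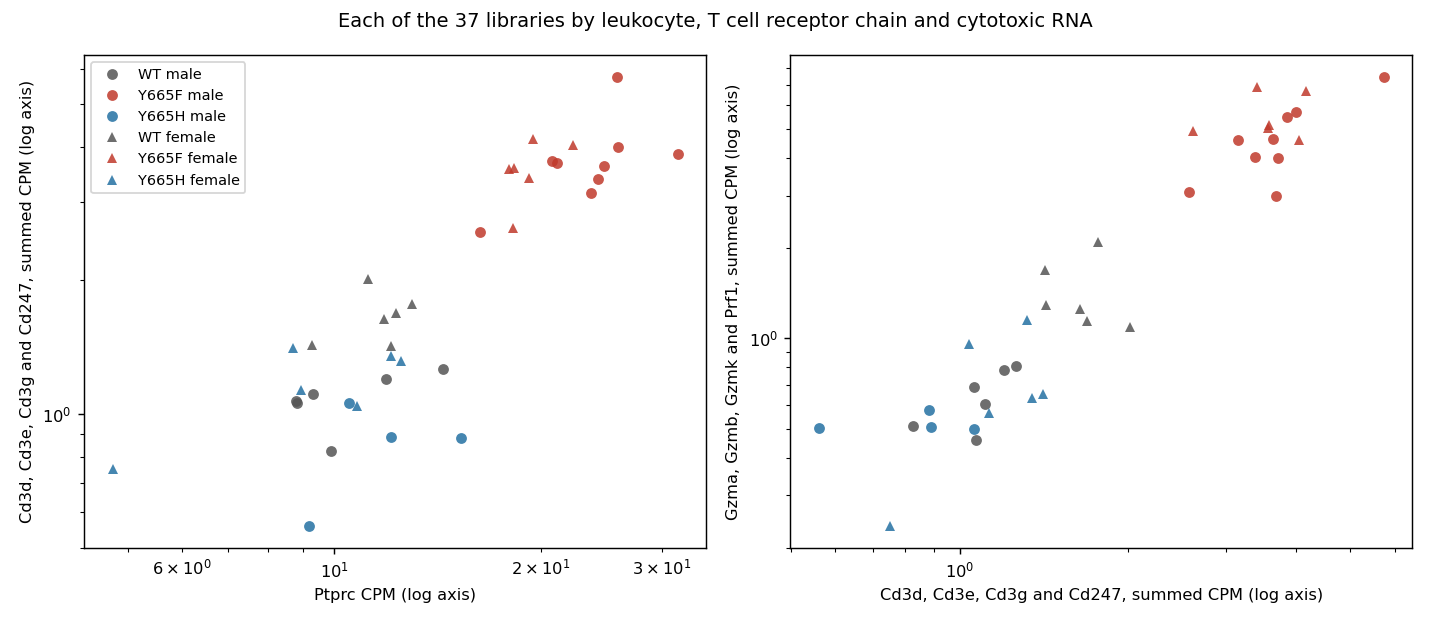
Each of the 37 libraries by summed CPM of the CD3 and zeta chains against Ptprc (left) and against summed granzymes and perforin (right), on log axes, with circles for males and triangles for females. The 15 Y665F libraries lie apart from the WT and Y665H libraries on the CD3 and zeta axis, at 2.57 CPM or above.

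Other genes of T and NK cells were taken from a list of 50 symbols, of which 37 were tested and 32 passed the count filter on the WT libraries alone. Of these 32, 24 were called higher and 1 lower in Y665F males, with a median log2 change of 1.11, against 27.2% and 25.3% of all genes. In Y665F females 27 were higher and 0 lower, with a median of 0.93, against 17.8% and 23.3%. Cd7, an antigen of T and NK cells, rose by 2.61 ± 0.228 (SE, adjusted p = 8.14e-12) in males, and the adaptor gene Sh2d2a by 1.83 ± 0.209 (SE, adjusted p = 4.34e-09). The checkpoint receptor Lag3 fell by 1.08 ± 0.215 (SE, adjusted p = 7.25e-05). In females Themis, a thymocyte selection gene, rose by 1.68 ± 0.485 (SE, adjusted p = 0.00561) and the transcription factor Ikzf3 by 1.56 ± 0.194 (SE, adjusted p = 4.99e-08). Themis was not called in males (-0.55 ± 0.395 (SE, adjusted p = 0.247)). In Y665H males 7 were lower and 1 higher, against 3.18% and 5.22% of all genes. The lower genes were led by the kinase gene Txk (-1.18 ± 0.345 (SE, adjusted p = 0.0288)), Lef1 (-1.03 ± 0.26 (SE, adjusted p = 0.012)) and Ms4a4b (-0.91 ± 0.257 (SE, adjusted p = 0.0234)), while Tcf7 was higher (0.44 ± 0.126 (SE, adjusted p = 0.0272)). Of the 20 alternative fits, 9 did not call Txk, 6 did not call Ms4a4b, 7 did not call Tcf7 and 1 did not call Lef1. In Y665H females 6 were lower, against 3.10% of all genes. Among them were Gimap3 (-1.05 ± 0.189 (SE, adjusted p = 0.00155)) and Ctsw (-1.0 ± 0.188 (SE, adjusted p = 0.00236)), the latter not called when only the groups compared were fitted.

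Of 15 cytokines and ligands that act on T and NK cells and passed the count filter on the WT libraries alone, 11 were higher and 2 lower in Y665F males, where 27.2% of all genes were called higher and 25.3% lower. In Y665F females 6 were higher and 2 lower, against 17.8% and 23.3%. Il7, the survival cytokine read by IL7R, averaged 3.08 CPM in Y665F males against 0.178 CPM in WT, a rise of 4.09 ± 0.323 (SE, adjusted p = 6.63e-13), and rose by 1.59 ± 0.353 (SE, adjusted p = 0.000434) in females. The CXCR3 ligand Cxcl9 rose by 1.66 ± 0.214 (SE, adjusted p = 5.07e-08) in males. In females Cxcl11, another CXCR3 ligand, rose by 1.11 ± 0.133 (SE, adjusted p = 2.08e-08). Raet1d, a ligand of NKG2D, fell by 3.37 ± 0.364 (SE, adjusted p = 2.54e-09) in females and fell by 0.75 ± 0.225 (SE, adjusted p = 0.0052) in males, and the interleukin-15 receptor alpha chain Il15ra fell by 0.39 ± 0.0969 (SE, adjusted p = 0.000981) in males. Il15 itself rose by 0.74 ± 0.13 (SE, adjusted p = 1.09e-05) in males. The NKG2D ligands on the list did not all fall. From WT to Y665F, mean H60b went from 0.246 to 0.495 CPM in males and from 0.262 to 0.44 CPM in females. Mean Ulbp1 went from 0.389 to 0.57 CPM in males and from 0.316 to 0.559 CPM in females. Mean Raet1e, which was not tested, went from 0.102 to 0.0865 CPM in males and from 0.152 to 0.0117 CPM in females. In Y665H liver Il7 was called in males alone (1.29 ± 0.407 (SE, adjusted p = 0.0428)), and 12 of its 20 alternative fits did not call it.

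Pan-leukocyte, B cell and most dendritic cell markers moved with the T and NK genes in Y665F liver of both sexes. The Kupffer cell and monocyte list did so in males, and in females only Ccr2 and Ly6c2 of that list were called. The part of all these markers in the result was not tested. Of 10 pan-leukocyte genes, 10 were higher in Y665F males and 9 in Y665F females, against 27.2% and 17.8% of all genes. All 9 B and plasma cell genes tested were higher in both sexes, against the same shares, with Jchain at 3.5 ± 0.229 (SE, adjusted p = 5.81e-15) in males. Kupffer cell and monocyte genes were higher in 14 of 14 cases in Y665F males, against 27.2% of all genes, with a median of 1.18. They were higher in 2 of 14 in Y665F females (14.3%, against 17.8% of all genes), with a median of 0.25. These 2 were Ccr2 (log2 change 1.3) and Ly6c2 (1.44), both called in all 22 alternative fits. Of 8 dendritic cell genes that passed the count filter on the WT libraries alone, 5 were higher and 0 lower in each sex. Of 6 stellate cell genes, 5 were higher and 0 lower in Y665F males, and 0 were higher and 1 lower in Y665F females. Of 11 neutrophil genes tested, 2 passed the count filter on the WT libraries alone. Of these, 2 were higher in Y665F males and 1 in Y665F females, against 27.2% and 17.8% of all genes. The summed neutrophil level was 63.4 CPM in Y665F male replicate 2, which was also the highest of its group for the pan-leukocyte and the Kupffer cell and monocyte sums. It ran from 6.46 to 11.8 CPM in the other Y665F males and from 2.32 to 3.93 CPM in WT males. The summed B and plasma cell level ran from 18.6 to 33.8 CPM in Y665F males and 5.13 to 8.42 CPM in WT males, and the Kupffer cell and monocyte level from 402 to 904 and 248 to 366 CPM. Without that replicate 14 of 14 Kupffer cell and monocyte genes and 10 of 10 pan-leukocyte genes were still called higher, in fits chosen after the data were seen. Of 4 erythroid genes tested, 1 was lower in Y665F males (2 without Y665F male replicate 9) and 0 higher. That share of 25% lower is near the 25.3% of all genes. The lower gene was Alas2, the heme synthesis enzyme of red cell precursors, which fell by 2.76 ± 0.124 (SE, adjusted p = 1.82e-19). In Y665F females 2 of the 4 were higher and 0 lower, against 17.8% and 23.3% of all genes. These were Epor (log2 change 0.47) and Alas2 (0.35), and the Alas2 call was lost in 11 of 22 alternative fits. The globin genes Hba-a2, Hbb-bs and Hbb-bt were at 0 in all 37 libraries. None of the B cell, Kupffer cell or neutrophil markers was at 0 in every library of a group.

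Dntt, the terminal transferase of immature lymphocytes, was the 1 of 4 thymocyte genes that passed the filter. It rose by 4.22 ± 0.332 (SE, adjusted p = 6.36e-13) in Y665F males, from a mean of 0.31 to 5.86 CPM, and by 1.43 ± 0.318 (SE, adjusted p = 0.000448) in Y665F females, and it fell by 1.86 ± 0.403 (SE, adjusted p = 0.00557) in Y665H females, a call lost with limma-voom and when only the groups compared were fitted. Rag1, Rag2 and Ptcra did not pass. Of 5 proliferation genes that passed the filter on the WT libraries alone, 4 were higher and 1 lower in Y665F males, against 27.2% and 25.3% of all genes. In Y665F females 1 was higher, Mki67, or 16.7% of the proliferation genes tested, near the 17.8% of all genes. Mki67, a marker of dividing cells, rose by 2.49 ± 0.288 (SE, adjusted p = 5.17e-09) in Y665F males and 1.73 ± 0.306 (SE, adjusted p = 2.3e-05) in Y665F females. The lower gene in males was Birc5, an inhibitor of apoptosis made in dividing cells, which fell by 0.61 ± 0.206 (SE, adjusted p = 0.0127). In Y665H males 4 of 14 Kupffer cell and monocyte genes, 2 of 9 B and plasma cell genes, 2 of 11 neutrophil genes and 1 of 10 pan-leukocyte genes were higher, against 5.22% of all genes, among them Marco (2.32 ± 0.426 (SE, adjusted p = 0.000654)) and Jchain (1.61 ± 0.261 (SE, adjusted p = 0.000159)), while the T and NK genes called there were lower. Marco held 18.6 CPM in Y665H male replicate 4 and at most 4.3 CPM in the other 3, and its log2 change was 1.14, still called, without that library. The count of 4 Kupffer cell and monocyte genes ran from 1 to 6 in the fits that left out 1 library. It was 1 without WT male replicate 2 or Y665H male replicate 4, and 2 without WT male replicate 3, 4 or 6 or Y665H male replicate 2 or 3. The count of 2 B and plasma cell genes was 1 without Y665H male replicate 2 or 3. The pan-leukocyte gene, Rac2, was not called in 9 of 20 alternative fits, and the neutrophil genes Elane and Prtn3, which do not pass the count filter on the WT libraries alone, were not called in 7 of 18 and 11 of 20. In Y665H females 2 of 10 pan-leukocyte genes were lower, against 3.10% of all genes: Cd37, which fell by 0.89 ± 0.162 (SE, adjusted p = 0.00179), and Coro1a, which fell by 0.46 ± 0.126 (SE, adjusted p = 0.0226). In 4 of 22 alternative fits Coro1a missed the threshold, and the count was 1 without WT female replicate 1 or Y665H female replicate 2. The part of these leukocyte markers in the lower T and NK genes was not tested.

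**Figure D5:**
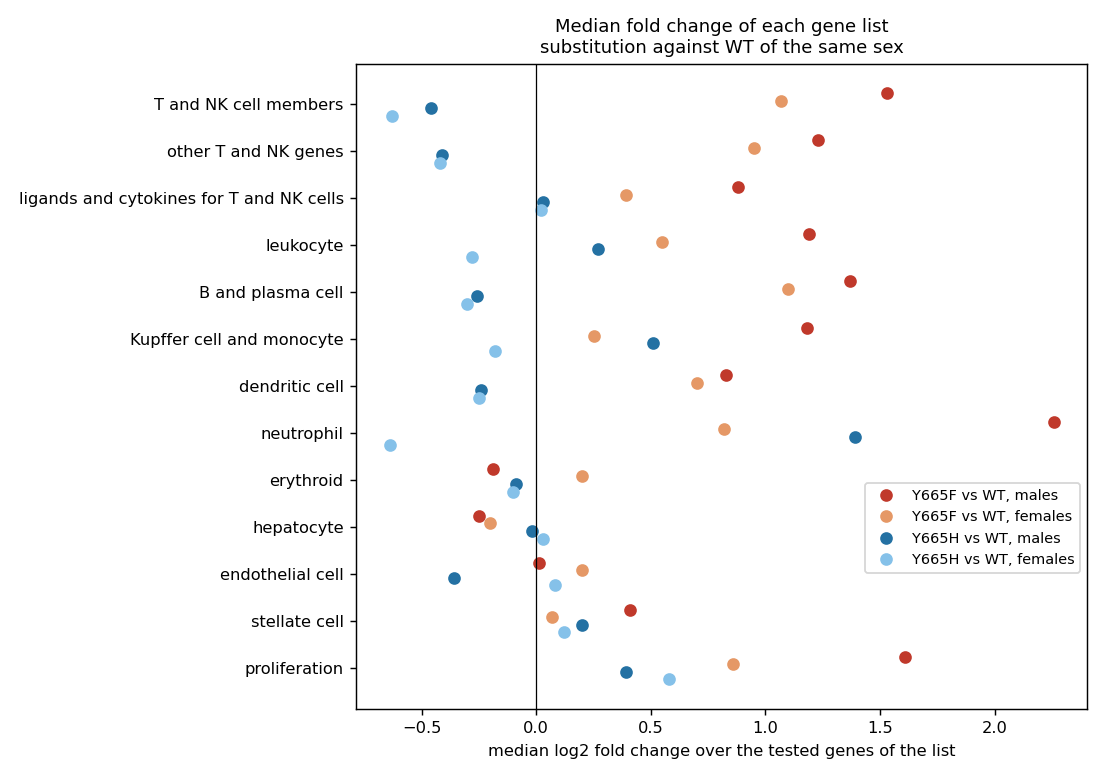
Median log2 fold change of each gene list (rows) in the 4 comparisons with WT. The 36 T and NK genes tested are at 1.53 in Y665F males and 1.07 in Y665F females, the other T and NK genes at 1.23 and 0.95 over all 37 tested, and the Kupffer cell and monocyte list at 1.18 and 0.25. In Y665H liver the 36 genes are at -0.46 in males and -0.63 in females. The neutrophil median covers 9 genes that do not pass the count filter on the WT libraries and is a description.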

How the data were processed

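Total RNA sequencing counts of 37 mouse liver libraries in 6 groups were used as deposited. Per the submitters' processing notes, the authors checked reads with FastQC 0.11.9, trimmed them with Trimmomatic 0.36, and used STAR, SAMtools 1.9, Picard 2.9.2 and HTSeq 0.9.1 with genome build mm10. The deposited values are raw counts per gene symbol. The annotation, the strand setting and filters are not given in the sources used here, and the labels' protocols name kits of different makers. The 5 rows that name no gene, which held 32.4 to 49.9% of the counts, were left out of library sizes.

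From these counts, filterByExpr (minimum count 10, minimum total 15) left 15152 of 24421 genes. One edgeR 4.0.16 quasi-likelihood model (R 4.3.3) with trimmed-mean scaling was fitted over all 37 libraries and 6 groups, and p-values were adjusted by the Benjamini-Hochberg method within each of 9 comparisons. The ± of a log2 change is its standard error. Levels per kilobase used exonic lengths of GENCODE on GRCm38. The script was tested on simulated data. DESeq2 1.42.0, limma-voom (limma 3.58.1), other scalings, no filter, thinning, a covariate, a replicate block and leaving out each library were tried. The 39 genes and all lists were chosen with earlier results of these data known. Levels per group are printed for 14 genes chosen by role and for the called genes with the highest and lowest fold, and up to 3 called genes per other list are named. Some genes of these lists are counted but not reported here by name. Genes named outside these rules were chosen after their values were seen. Intervals from counts cover counting error only.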

Additional observations from a re-analysis of the deposited data

Results flagged for a closer look

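Among 15 genes in 6 groups, 9 of 90 sets of libraries held 1 library whose distance to the next was large against the range of its group (Dixon's criterion at 95%), where chance sets apart about 1 in 20. In Y665F males, replicate 6 was the highest for Cd3e at 3 CPM (next 1.77), for Cd8b1 at 1.08 CPM (next 0.66) and for Gzma at 4.22 CPM (next 1.61). Replicate 9 of that group was the highest for Prf1 at 1.61 CPM (next 0.937). WT male replicate 2 held 0.24 CPM of Cd8a (next 0.151). WT female replicate 2 held 0.721 CPM of Cd3e (next 0.59) and WT female replicate 1 held 0.759 CPM of Gzma (next 0.433). Y665F female replicate 1 held 22.3 CPM of Ptprc (next 19.5). Y665H female replicate 6 held 0.894 CPM of Foxp3 (next 0.422).

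The change under Y665F differed between males and females, by the interaction term of the edgeR model at an adjusted p under 0.05, for 13 genes. The difference, male minus female on the log2 scale, was 1.67 for Gzmb, 1.28 for Cd8a, 1.13 for Cd3d, 1.02 for Nkg7, 1.0 for Icos, 0.94 for Ccl5, 0.89 for Cd6, 0.86 for Il2rb, 0.77 for Cxcr3, 0.65 for Il2rg and 0.57 for Thy1. It was -1.5 for Il2ra and -0.95 for Cd4. Under Y665H it was 1.07 for Icos, a call lost in 9 of the 22 fits that left out 1 library.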

How the results depend on the processing

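The counts of T and NK genes called for Y665F against WT and for Y665H against Y665F stayed within 1.5 times under each of the 10 other settings: 30 to 35 in Y665F males (32 as reported), 30 to 33 in Y665F females (33), 32 to 35 between the mutants in males (34) and 30 to 36 in females (36). Leaving out 1 library gave 31 to 32, 29 to 32, 33 to 34 and 35 to 36. The 5 genes of Y665H males became 3 with no filter, 3 with total-count scaling, 3 with only the groups compared, 2 with the no-feature share as covariate, 2 when thinned and 2 with a replicate block, and 2 to 6 when 1 library was left out. The 11 genes of Y665H females became 6 with limma-voom, 5 with the no-feature share and 2 with only the groups compared, and 4 to 16 when 1 library was left out. The 19 genes between WT sexes became 10 with the no-feature share, and 14 to 20 when 1 library was left out. Under that covariate the sex difference of Il2ra reversed to -0.06 (adjusted p = 0.912). The 13 interaction genes of Y665F became 5 with that covariate and 7 when thinned, and 9 to 14 when 1 library was left out. The 1 of Y665H became 2 with DESeq2 and 0 with only the groups compared, and 0 to 1 when 1 library was left out. The cause of these shifts was not tested. Of the single-gene values under the alternatives, 4093 kept direction and call, 260 lost the call and 1 reversed. Replicate numbers do not pair the libraries: same-numbered libraries of different groups correlated at a median r of 0.00472 over 80 pairs, against -0.00241 over 484 other pairs. With the replicate block, 32 genes were called in Y665F males, 32 in Y665F females, 2 in Y665H males, 10 in Y665H females, 19 between WT sexes and 11 in the Y665F interaction. Total-count scaling moved the median of all genes by -0.135 in Y665F females, 0.11 between the mutants in females and 0.108 between WT sexes. A prior count of 0.5 in the ratios, tried after the data were seen, changed no call. Ctla4, Gzmk and Ifng are limited by depth, at no more than 11 counts in a library.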
